A study of Mus musculus with 16 samples.

Results

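The MHC class II presentation genes measured here were 9 genes chosen by name: Ciita, the master regulator of class II transcription, Cd74, the invariant chain, and the class II genes H2-Aa, H2-Ab1, H2-Eb1, H2-DMa, H2-DMb1, H2-Oa and H2-Ob. Of these, 8 had a probe set of their own among the 19938 genes of the arrays, and each of the 8 had 1 probe set. The probe set of H2-DMb1 is shared with another gene in the annotation, so no value is given for it. The genes lie on mouse chromosome 17 in 7 cases, with Ciita on chromosome 16 and Cd74 on chromosome 18.

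The arrays profiled sorted cDC1, the conventional dendritic cell type best known for showing antigen of dead cells to CD8 T cells on MHC class I. These cells were taken from inguinal lymph nodes of C57BL/6 mice 6 days after injection of a tumour of a kind that regresses, placed in the flank of every mouse. Draining cells came from the node on the tumour side and non-draining cells from the node on the other side. The groups were draining Wdfy4 KO, draining Wdfy4 Het, non-draining Wdfy4 KO and non-draining Wdfy4 Het cells, with 4 arrays each and 16 in all. WDFY4, a protein of the BEACH family, is needed by cDC1 for cross-presentation of antigen from other cells, and Het cells keep 1 intact copy, so no group is wild type and no mouse is free of tumour. Whether each array stands for its own mouse is not given in the labels, so p-values measure only the spread between these samples, some of which may be technical.

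Class II molecules present peptides from endosomes to CD4 T cells. In the endoplasmic reticulum the alpha and beta chains assemble with the invariant chain, which plugs the groove and sorts the complex to endosomes. There proteases trim the invariant chain to a short fragment, H2-DM exchanges that fragment for peptide, and H2-O restrains H2-DM. Transcription of these genes depends on CIITA, which does not bind DNA itself and is recruited by factors that sit on conserved elements called the X and Y boxes before each gene. Dendritic cells express the classical class II chains and the invariant chain at a high level. On maturation they shut off Ciita transcription while class II molecules remain on the surface.

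Promoter sequences are given because they show how the letters of the X and Y boxes recur before genes of this set. RefSeq promoter windows on GRCm38.p6 were used for 6 of the 9 genes. No window of Ciita, Cd74 or H2-Ab1 was used, so whether the pair lies before these genes is not reported. A search of the 250 bases before each start used GNAAC, the start of an X box, followed 22 to 40 bases downstream (start to start) by GATTGG, the core of a Y box, on the strand of the gene. The letters and the spacing were chosen on seeing these windows. The pair was present in 5 of the 6 genes, which are printed 5′ to 3′ on the gene's own strand, with the 2 matches in capitals. The windows are H2-Aa at chr17:34287861-34287910 (minus strand), H2-Eb1 at chr17:34305770-34305818 (plus), H2-DMb1 at chr17:34153091-34153140 (plus), H2-Oa at chr17:34092297-34092346 (plus) and H2-Ob at chr17:34238812-34238858 (plus).
H2-Aa: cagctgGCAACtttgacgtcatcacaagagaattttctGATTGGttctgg
H2-Eb1: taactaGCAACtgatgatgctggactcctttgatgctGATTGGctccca
H2-DMb1: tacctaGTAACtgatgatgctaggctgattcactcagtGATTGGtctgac
H2-Oa: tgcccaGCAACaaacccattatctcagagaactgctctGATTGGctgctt
H2-Ob: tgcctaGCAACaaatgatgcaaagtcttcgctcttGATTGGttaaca

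From the first base of the X match to the first base of the Y match there were 32 bases in H2-Aa, 31 in H2-Eb1, 32 in H2-DMb1, 32 in H2-Oa and 29 in H2-Ob. The Y match began 49 bases before the start of H2-Aa, 60 before that of H2-Eb1, 62 before that of H2-DMb1, 44 before that of H2-Oa and 58 before that of H2-Ob. Of all 32851 promoter windows searched in the same way, 160 held the pair on the gene's strand (0.487%) and 304 on either strand (0.925%). On either strand, 14.6% of windows held GATTGG and 79.6% held GNAAC, so the pair and not the single motifs was rare. The 2 windows held for H2-DMa did not contain these letters at this spacing.

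The identity of the sorted cells was read from markers first. All 13 cDC1 markers were measured, and over the 16 arrays the receptor Xcr1 gave 1240 to 2495 intensity units, the receptor Clec9a 1031 to 1777 and the transcription factor Irf8 2703 to 4082. The median over all probe sets of an array was 38.6 to 40.8. The cDC1 marker of lowest median, Zbtb46, gave 121.7 to 177.5. Some markers from other lists were above the array median as well. The migratory dendritic cell genes Ccr7 and Fscn1 gave 3354 to 5731 and 3065 to 6739. Cd3g and Cd3d, of the T cell receptor complex, gave 155.3 to 889.2 and 84.3 to 453.0. Bst2 of the plasmacytoid list gave 456.1 to 1297, and Lyz2 of the macrophage list 353.7 to 811.3. Other members of these lists were not above it, such as Epcam of the migratory list at 22.3 to 37.3. The targeted gene checked the labels only in part: Wdfy4 averaged 2252 ± 411 in draining KO cells and 2957 ± 433 in draining Het cells, and 2375 ± 557 in non-draining KO cells and 2804 ± 549 in non-draining Het cells (SD, n = 4 each). Its log2 difference, KO minus Het, was -0.32 over both nodes, with an unadjusted limma p of 0.0196 (0.0376 for draining and 0.181 for non-draining cells alone). It did not pass the threshold among all genes (adjusted limma p 1.00), and the labels do not say which exons the mutation removes. Arrays numbered 3 and 4 stood apart from arrays 1 and 2 for several genes below, and values are given with and without that split where it matters.

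Ciita, which encodes the transactivator, was read by probe set 10433507. It gave 410.8, 378.4, 397.5 and 299.9 intensity units in draining KO cells, against 385.1, 497.8, 389.5 and 315.5 in draining Het cells, for arrays 1 to 4 in turn. Non-draining KO cells gave 428.0, 561.5, 354.4 and 347.7, against 360.9, 491.7, 261.2 and 244.8 in non-draining Het cells. The lowest 2 of the 16 values were arrays 3 and 4 of the Het non-draining cells and the highest was array 2 of the KO non-draining cells, and the 4 groups overlapped in every comparison. Ciita spanned 2.29-fold from its lowest to its highest array, the widest span of the 8 genes, and its within-group SD of 0.33 on the log2 scale was larger than that of 90.3% of all genes.

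**Figure D1:**
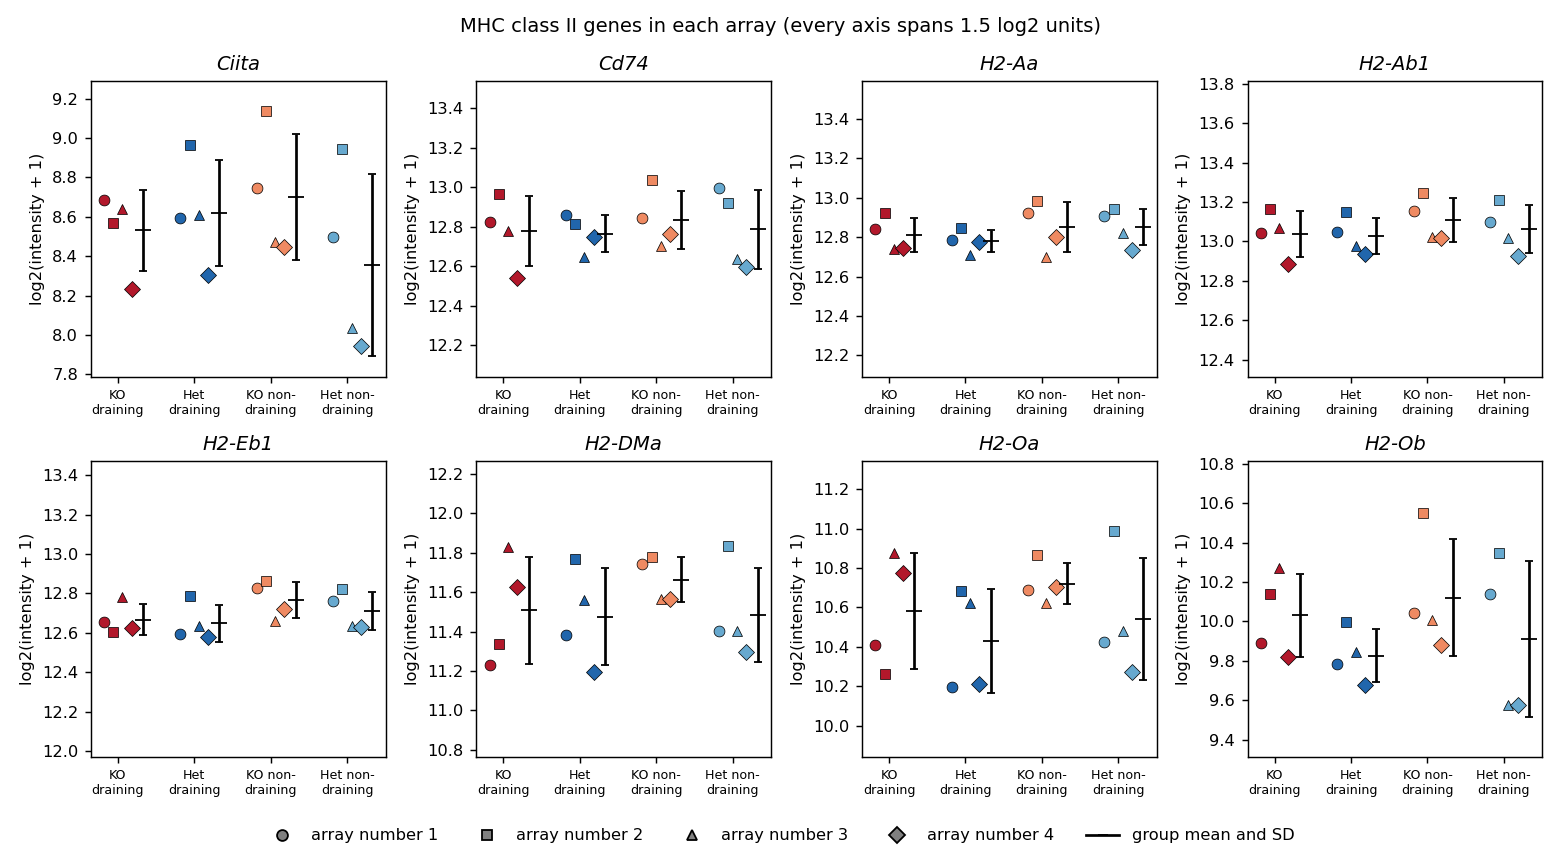
Log2(intensity + 1) of the 8 measured class II genes (y axis, each spanning the same 1.5 log2 units) in each array of the 4 groups (x axis), with symbols for the array number and bars for the group mean and SD. The groups overlap for every gene, and Ciita has the widest scatter, from 244.8 to 561.5 intensity units.

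Cd74, the invariant chain that escorts new class II molecules, gave 7241, 8009, 7012 and 5952 in draining KO cells and 7425, 7196, 6399 and 6869 in draining Het cells. Non-draining KO cells gave 7344, 8416, 6658 and 6939, against 8171, 7746, 6369 and 6197 in non-draining Het cells. Cd74 was split by array number rather than by group: the 8 arrays numbered 1 and 2 lay between 7196 and 8416, and the 8 numbered 3 and 4 between 5952 and 7012, with no overlap. Group membership accounted for 3.66% of the variation in Cd74, against a median of 14.04% over all genes.

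The classical class II chains were the most even of the set. H2-Aa, the alpha chain of I-A, gave 7335, 7751, 6829.8 and 6854 in draining KO cells and 7051, 7364, 6707 and 7017 in draining Het cells. It gave 7751, 8109, 6649 and 7146 in non-draining KO cells, against 7668, 7864, 7227 and 6823 in non-draining Het cells. From lowest to highest array H2-Aa changed by 1.22-fold, and its within-group SD of 0.094 on the log2 scale was larger than that of 5.41% of genes.

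H2-Ab1, the beta chain of I-A, gave 8421, 9178, 8591 and 7557 in draining KO cells and 8475, 9078, 8050.4 and 7833 in draining Het cells. Its values in non-draining KO cells were 9111, 9699, 8304 and 8281, against 8778, 9478, 8279.9 and 7782 in non-draining Het cells. Array 2 was the highest of its group in all 4 groups, as it was for H2-Aa. The within-group SD of H2-Ab1 was 0.11, larger than that of 12.4% of genes.

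H2-Eb1, the beta chain of I-E, gave 6447, 6229, 7038 and 6308 in draining KO cells and 6191, 7059, 6368 and 6119 in draining Het cells. It gave 7265, 7444, 6481 and 6740.4 in non-draining KO cells, against 6954, 7242, 6349 and 6327 in non-draining Het cells. H2-Eb1 had the smallest within-group SD of the 8 genes (0.091, larger than that of 4.58% of genes) and the largest share of variation between groups (25.2%), with KO non-draining cells highest at 6983 ± 448 and Het draining cells lowest at 6434 ± 430 (SD, n = 4 each). The alpha chain of I-E is not made in C57BL/6 mice, as background, and H2-Ea was dim on every array, at 16.2 to 28.3 intensity units.

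The genes of peptide loading varied more between arrays. H2-DMa, the alpha chain of the peptide exchanger, gave 2404, 2591, 3645 and 3164 in draining KO cells and 2668, 3485, 3015 and 2340.0 in draining Het cells. It gave 3433, 3519, 3032 and 3028 in non-draining KO cells and 2707, 3656, 2712 and 2513 in non-draining Het cells. In draining KO cells arrays 3 and 4 were above arrays 1 and 2, the reverse of the order seen for Cd74, while in draining Het cells array 2 was highest and array 4 lowest.

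H2-Oa, the alpha chain of the H2-DM inhibitor, followed the same order of arrays in the draining KO cells. It gave 1358, 1228, 1882 and 1752 in draining KO cells and 1171, 1645, 1578 and 1184 in draining Het cells, and 1649, 1864, 1576 and 1668 in non-draining KO cells and 1373, 2032, 1427 and 1235 in non-draining Het cells. The 4 KO non-draining arrays were close together, with a mean of 1690 ± 123, while the 4 Het non-draining arrays spread to 1517 ± 353 (SD, n = 4 each).

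H2-Ob, the beta chain of that inhibitor, gave 947.8, 1128, 1235 and 903.7 in draining KO cells and 881.2, 1021, 918.4 and 817.6 in draining Het cells. It gave 1054, 1499, 1029.6 and 941.9 in non-draining KO cells, against 1128, 1304, 761.2 and 761.8 in non-draining Het cells. Its lowest values were arrays 3 and 4 of the Het non-draining cells, the same 2 arrays that were lowest for Ciita, and it spanned 1.97-fold.

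All 8 genes had their highest group mean on the log2 scale in the KO non-draining cells. The lowest group was the Het draining cells for every gene but Ciita, for which it was the Het non-draining cells. The distance between the highest and the lowest group mean was 0.34 on the log2 scale for Ciita, 0.30 for H2-Ob, 0.29 for H2-Oa, 0.19 for H2-DMa, and between 0.07 and 0.12 for Cd74, H2-Aa, H2-Ab1 and H2-Eb1. Neighbours in these orders that share a genotype or a node did not differ beyond their spread in the tests below, and neighbours that differ in both were not tested.

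The first comparison asked whether loss of Wdfy4 changed class II transcripts in the node that drains the tumour. Of the 8 genes, 0 were called at an adjusted p of 0.05 in limma, as for all genes (0% called), and 0 had an unadjusted p under 0.05, where 3.39% of all genes did. Ciita averaged 371.7 ± 49.7 in KO and 397.0 ± 75.3 in Het cells (SD, n = 4 each), and the log2 difference was -0.09 ± 0.21 (SE). H2-Ob averaged 1054 ± 155 in KO and 909.6 ± 85.2 in Het cells, 0.20 ± 0.18 on the log2 scale (exact permutation p 0.171, smallest possible 0.0286). By sign, 7 genes were higher and Ciita was lower, with a median log2 difference of 0.02, while 49.1% of all genes were higher and their median was -0.00. Among markers, those of T cells were higher in 9 of 9 cases by sign (median 0.27), those of B cells in 9 of 11 (median 0.13) and those of cDC1 in 5 of 13 (median -0.02), and their part in these values was not tested.

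The differences of H2-DMa and H2-Oa in the draining node turned on which arrays were read. Over all arrays the log2 difference was 0.03 ± 0.15 (SE) for H2-DMa and 0.15 ± 0.17 for H2-Oa. In arrays 1 and 2 alone it was -0.29 for H2-DMa and -0.10 for H2-Oa, and in arrays 3 and 4 alone it was 0.35 for H2-DMa and 0.41 for H2-Oa. None of these values passed the threshold.

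In the non-draining node the same question gave higher means in KO cells for all 8 genes, with a median log2 difference of 0.12, where 51.9% of all genes were higher and the median of all genes was 0.00. Again 0 genes were called in limma (background 0%) and 0 had an unadjusted p under 0.05 (background 2.48%). Ciita averaged 422.9 ± 99.3 in KO and 339.6 ± 114 in Het cells (SD, n = 4 each). Its log2 difference of 0.34 ± 0.21 (SE) had a 95% interval from -0.10 to 0.79, an unadjusted limma p of 0.116, an adjusted limma p of 1.00 and an exact permutation p of 0.286. The Ciita difference was 0.22 in arrays 1 and 2 alone, 0.47 in arrays 3 and 4 alone, 0.20 without array 2 of the KO cells, 0.21 without array 4 of the Het cells and 0.54 without array 2 of the Het cells.

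H2-DMa, H2-Oa and H2-Ob differed by 0.18 ± 0.15, 0.18 ± 0.17 and 0.21 ± 0.18 (log2, SE) between non-draining KO and Het cells. Cd74, H2-Aa, H2-Ab1 and H2-Eb1 differed by 0.05, 0.00, 0.05 and 0.06. Each interval held 0. Marker genes differed by sign in this comparison as well, with 0 of them called. The cDC1 markers were higher in 12 of 13 cases by sign (median 0.20), the B cell markers in 11 of 11 (median 0.33) and the T cell markers lower in 9 of 9 (median -0.38). With the mean of the cDC1 markers as a covariate, a setting added after seeing the data, the median difference of the 8 genes was -0.08 and that of Ciita -0.09. In a sorted pool, fewer cells of a type and less RNA per cell cannot be told apart.

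The node was compared next, with draining against non-draining cells of the same genotype, and these comparisons share their arrays with those of genotype. In Het cells 0 of the 8 genes were called (background 0%), 0 had an unadjusted p under 0.05 (background 3.29%), and 1 was higher and 7 lower by sign, with 52.8% of all genes higher. Ciita was the gene with the higher sign, at 397.0 ± 75.3 in draining and 339.6 ± 114 in non-draining Het cells (SD, n = 4 each), and differed by 0.26 ± 0.21 (log2, SE). The difference was 0.06 in arrays 1 and 2 alone and 0.47 in arrays 3 and 4 alone. The other 7 genes differed by -0.11 to -0.01. T cell markers were lower in 9 of 9 cases by sign (median -0.47) and cDC1 markers higher in 9 of 13 (median 0.08), and their part in these values was not tested.

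In KO cells 0 genes were called (background 0%) and 0 had an unadjusted p under 0.05 (background 2.11%). All 8 were lower in draining cells by sign, with a median log2 difference of -0.10, where 50.7% of all genes were higher and the median of all genes was 0.00. Ciita averaged 371.7 ± 49.7 in draining and 422.9 ± 99.3 in non-draining KO cells (SD, n = 4 each), and the log2 difference was -0.17 ± 0.21 (SE). H2-Eb1, the beta chain of I-E, averaged 6506 ± 366 in draining and 6983 ± 448 in non-draining KO cells, a log2 difference of -0.10 ± 0.08 (exact permutation p 0.171). In arrays 1 and 2 alone the difference of H2-Eb1 was -0.21, and in arrays 3 and 4 alone it was 0.01. By sign, cDC1 markers were lower in 11 of 13 cases (median -0.09), B cell markers lower in 10 of 11 (median -0.20) and T cell markers higher in 8 of 9 (median 0.25), and their part was not tested here either.

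**Figure D2:**
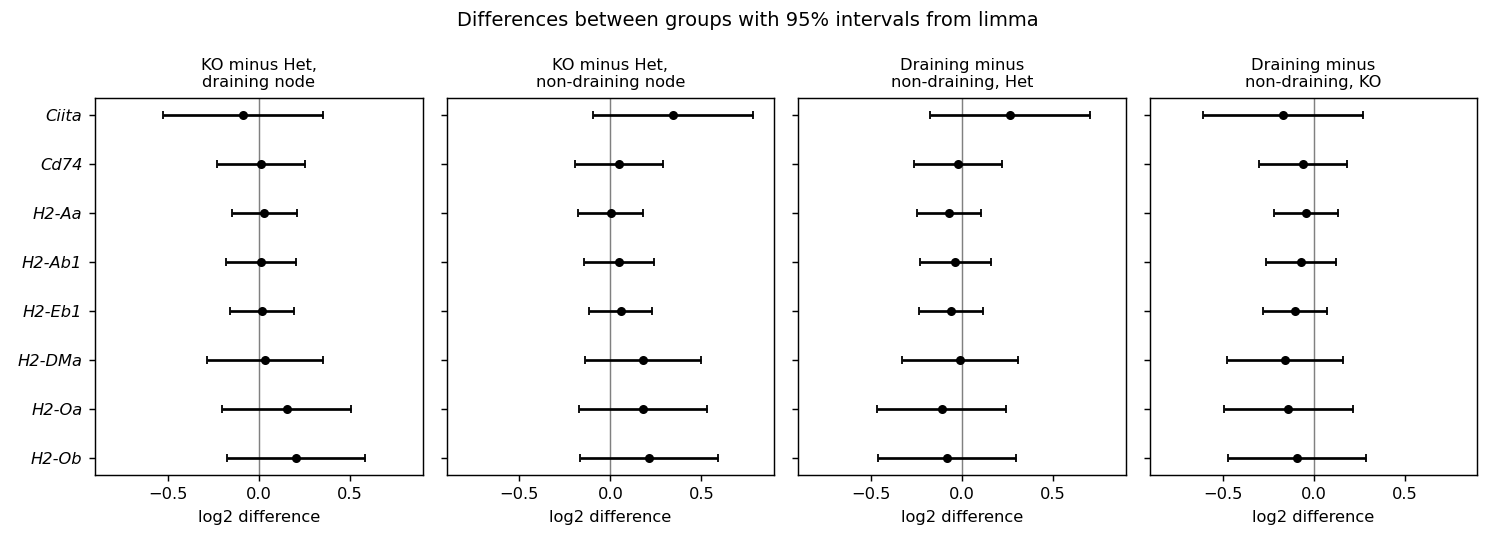
Log2 differences (x axis) of the 8 class II genes (y axis) in the 4 simple comparisons, with points for the difference and bars for the 95% interval from limma over 16 arrays. Every interval holds 0; those of Cd74, H2-Aa, H2-Ab1 and H2-Eb1 are the narrowest, between -0.30 and 0.29.

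Whether the node difference depended on genotype was tested with the interaction, the node difference in KO cells minus that in Het cells. Ciita had the value farthest from 0 of the 8 genes, -0.43 ± 0.29 (log2, SE), with a 95% interval from -1.05 to 0.19 and an unadjusted limma p of 0.162. For the other 7 genes the interaction lay between -0.15 and 0.03, and by sign it was above 0 for H2-Aa alone, where 47.7% of all genes were above 0. None was called (background 0%), and none had an unadjusted p under 0.05 (background 2.32%). With the cDC1 marker mean as a covariate, the setting added after seeing the data, the interaction of Ciita was 7.51e-05. That mean correlated with Ciita at r 0.94 within the groups over the same arrays. The fit therefore cannot show what part the cDC1 markers had in the interaction. The cDC1 markers themselves had an interaction below 0 in 11 of 13 cases (median -0.22), and the T cell markers one above 0 in 9 of 9 (median 0.70).

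Averaged over both nodes, KO minus Het was above 0 for all 8 genes, with 50.8% of all genes higher and a median of 0.07 for the class II genes. B cell markers were higher in 11 of 11 cases (median 0.32, 4 with an unadjusted p under 0.05 and 0 called) and cDC1 markers in 12 of 13 (median 0.07). The largest values of class II genes were 0.21 ± 0.13 for H2-Ob, 0.17 ± 0.12 for H2-Oa and 0.13 ± 0.15 for Ciita (log2, SE). Averaged over both genotypes, draining minus non-draining was above 0 for Ciita alone, with 52.3% of all genes higher. None of these 16 values had an unadjusted p under 0.05 in limma, where 3.49% of all genes did for genotype and 3.06% for node, and none was called (background 0% in both).

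The intervals give the range of differences that the values of these arrays allow. Over the 32 results of a gene in a simple comparison, all 32 intervals held 0 and 0 had groups that did not overlap, where between 1.44% and 2.4% of all genes did. For Cd74, H2-Aa, H2-Ab1 and H2-Eb1 the 95% intervals ran from 0.811-fold to 1.22-fold at the widest. For Ciita, H2-DMa, H2-Oa and H2-Ob they ran from 0.656-fold to 1.72-fold at the widest. These are the outermost bounds over the genes and comparisons, and the interval of a single gene can be narrower. With 4 arrays a group, they bound the differences and are not a limit of detection for each gene. RMA, the normalization used, gives all arrays nearly one distribution of values, so a shift shared by all genes would not show.

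Group membership accounted for 3.66% to 25.2% of the variation of the 8 genes, and the rest lay between arrays of a group. With the group means removed, the deviations of Ciita over the 16 arrays were set against those of each of the other 7 genes. Pearson's r was 0.90 with H2-Ab1 (Spearman's rho 0.84), 0.90 with H2-Ob (rho 0.87), 0.85 with H2-Eb1 (rho 0.84), 0.76 with Cd74 (rho 0.79) and 0.74 with H2-Aa (rho 0.67). It was 0.61 with H2-DMa (rho 0.51) and 0.56 with H2-Oa (rho 0.46). Adjusted permutation p-values over the 7 pairs were 0.00063 for H2-Ab1, 0.000875 for H2-Ob, 0.00166 for H2-Eb1, 0.0084 for Cd74, 0.00826 for H2-Aa, 0.0224 for H2-DMa and 0.0505 for H2-Oa, so 6 of 7 passed. The permutation p for rho was 0.0701 for H2-DMa and 0.119 for H2-Oa.

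Without the 2 arrays farthest from the median deviation of Ciita, r was 0.87 with H2-Ab1, 0.85 with H2-Ob, 0.82 with H2-Eb1, 0.73 with Cd74, 0.67 with H2-Aa, 0.43 with H2-DMa and 0.29 with H2-Oa. The relations with H2-DMa and H2-Oa therefore rested in part on those 2 arrays. The pair with H2-DMa also failed the threshold without array 2 or 4 of either Het group (r 0.43 to 0.56). The pair with H2-Oa failed it in 16 of 22 alternatives, as with all arrays. It passed in the rest, among them those without array 1, 2 or 4 of the draining KO cells. Arrays of one series share the normalization, and no cause of the shared deviations was tested.

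**Figure D3:**
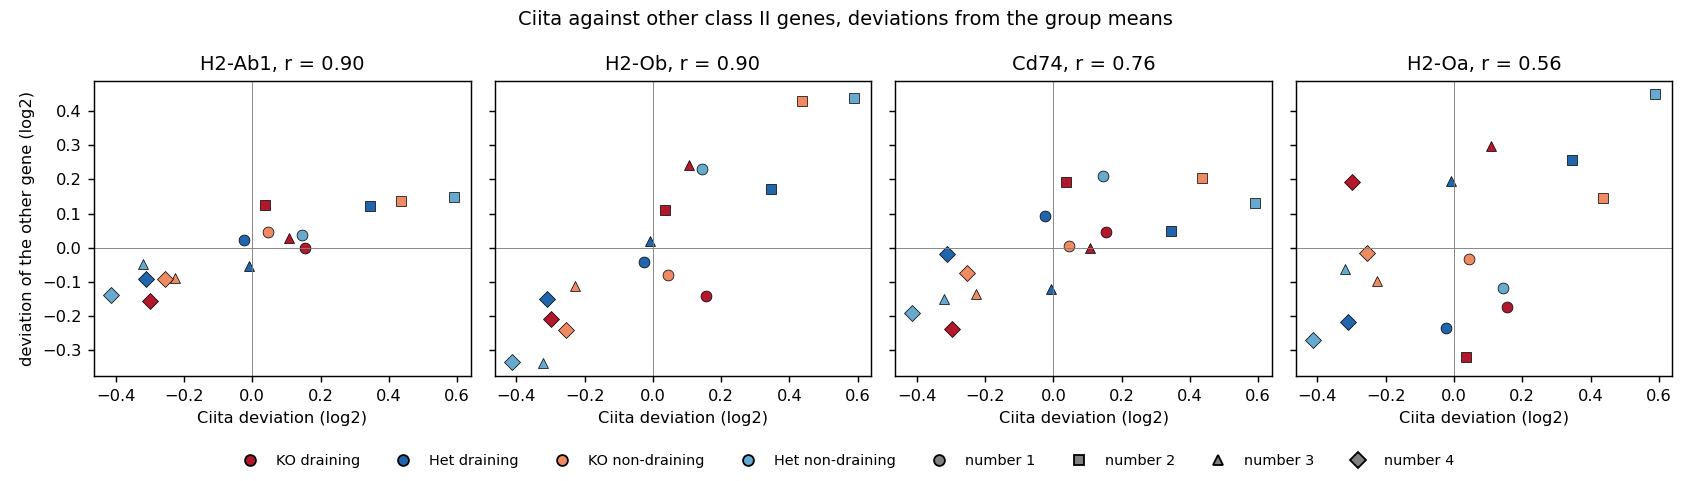
Deviation from the group mean of H2-Ab1, H2-Ob, Cd74 and H2-Oa (y axes, log2) against that of Ciita (x axes, log2) in 16 arrays, with colours for the group and symbols for the array number. H2-Ab1 and H2-Ob follow Ciita closely (r 0.90 each), and H2-Oa does so less (r 0.56).

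The array numbers ran through this pattern. Arrays 1 and 2 were above arrays 3 and 4 by 0.43 on the log2 scale for Ciita, 0.28 for H2-Ob, 0.23 for Cd74, 0.16 for H2-Ab1 and 0.14 for H2-Aa. The gap was 0.08 for H2-Eb1, 0.06 for H2-DMa and -0.01 for H2-Oa. Ciita, Cd74, H2-Aa and H2-Ab1 were higher in arrays 1 and 2 in 4 of 4 groups, and the other 4 genes in 3 groups. The labels do not say what the numbers stand for, so a batch and the mice cannot be told apart.

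Within each set of 8 arrays the relation was recomputed. In arrays 1 and 2, r with Ciita was 0.70 for H2-Ab1, 0.75 for H2-Ob, 0.79 for H2-Eb1, 0.80 for H2-DMa, 0.94 for H2-Oa, 0.62 for H2-Aa and 0.05 for Cd74. In arrays 3 and 4 it was 0.88 for H2-Ab1, 0.92 for H2-Ob, 0.88 for H2-Eb1, 0.91 for H2-DMa, 0.74 for H2-Oa, -0.22 for H2-Aa and 0.49 for Cd74. The relation held its sign and a size of at least 0.70 in both sets for H2-Ab1, H2-Eb1, H2-DMa, H2-Oa and H2-Ob. It did not for Cd74 and H2-Aa. The smallest permutation p that 8 such arrays allow is 0.125, so none of these could pass. With 2 arrays a group in a set, the 2 deviations of a group mirror each other. Each r within a set, here and below, thus rests on 1 difference in each of 4 groups and can be large without a relation.

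Among the 8 genes, 27 of 28 pairs had an r above 0, as a description. Ciita, Cd74, H2-Aa, H2-Ab1 and H2-Ob correlated with each other at 0.63 to 0.90. H2-DMa and H2-Oa, the alpha chains of the exchanger and its inhibitor, correlated at 0.92. Either of these with Cd74 or H2-Aa gave -0.01 to 0.19. H2-Eb1 stood between, with 0.79 to H2-DMa, 0.72 to H2-Oa and 0.80 to H2-Ob.

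**Figure D4:**
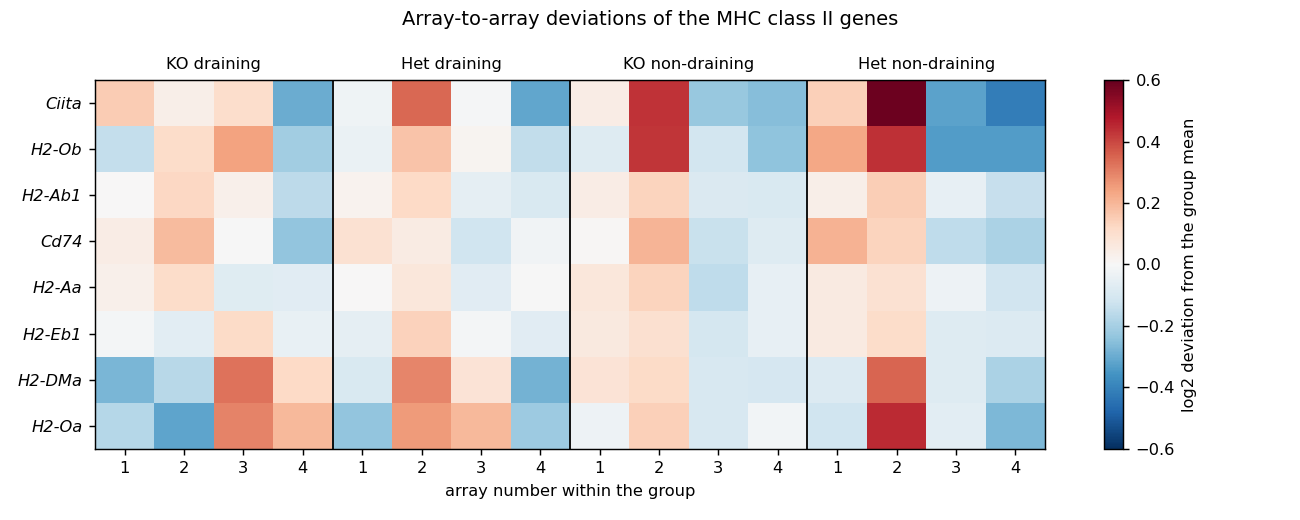
Deviation of each of the 8 class II genes (y axis) from its group mean in each of the 16 arrays (x axis, array number within the group), coloured on the log2 scale from -0.6 to 0.6. Array 2 is above its group mean for all 8 genes in Het draining, KO non-draining and Het non-draining cells, while KO draining arrays 3 and 4 are high for H2-DMa and H2-Oa.

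Markers of the sorted cells moved with these deviations. The mean log2 level of the 13 cDC1 markers correlated with Ciita at r 0.94 (rho 0.92, 0.90 without the 2 farthest arrays, adjusted permutation p 0.0014 over 56 relations) and at 0.96 and 0.91 within the 2 sets of arrays. It correlated with H2-Eb1 at 0.95 (adjusted permutation p 0.0014), with H2-Ob at 0.88 (0.0129), with H2-Ab1 at 0.80 (0.0227) and with H2-DMa at 0.71 (0.0339). The relations with H2-Oa (0.66), Cd74 (0.65) and H2-Aa (0.62) did not pass. By rank the relation with H2-DMa failed (rho 0.58, adjusted permutation p 0.114). Within arrays 1 and 2, and then within arrays 3 and 4, r was 0.85 and 0.99 for H2-Eb1, 0.55 and 0.91 for H2-Ob, 0.50 and 0.86 for H2-Ab1, and 0.75 and 0.72 for H2-DMa. The cDC1 marker mean was 9.63 in draining KO cells and 9.63 in draining Het cells, and 9.71 in non-draining KO cells and 9.50 in non-draining Het cells. Its part in the differences of the class II genes was not tested. The covariate fits above cannot show it, since the marker mean and the genes come from the same arrays.

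Among other cells, B cells also express class II, and none of the 8 genes had a relation with the 11 B cell markers that passed (r -0.25 to 0.29). Within the sets the B cell relation changed sign, from 0.62 in arrays 1 and 2 to -0.77 in arrays 3 and 4 for H2-DMa, and from 0.63 to -0.83 for H2-Oa. Without the 2 arrays farthest from the median of the B cell markers, r was -0.66 for H2-Aa and -0.60 for H2-Ab1. The summed intensity of those markers ran from 726.8 to 949.1 in draining KO cells and 611.7 to 998.6 in draining Het cells, and from 835.0 to 1096 in non-draining KO cells and 604.0 to 1023 in non-draining Het cells. Among these markers Ms4a1 gave 21.1 to 60.4 and Cd79a 30.7 to 124.1 intensity units. The brightest by median were Fcrla, at 144.0 to 303.9, and Pax5, at 75.6 to 186.4.

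The 9 T cell markers ran opposite to H2-Aa over all arrays (r -0.79, adjusted permutation p 0.0359), but in arrays 1 and 2 alone r was -0.17, and in arrays 3 and 4 alone it was -0.63. The 7 markers of macrophages and monocytes ran with H2-DMa (r 0.81, adjusted permutation p 0.0207, within sets 0.62 and 0.88) and H2-Oa (r 0.73, adjusted permutation p 0.0406, within sets 0.48 and 0.75). By rank the relation with H2-Oa failed (rho 0.65, adjusted permutation p 0.114).

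The 6 markers of migratory dendritic cells and Langerhans cells ran opposite to H2-Ab1 (r -0.75, adjusted permutation p 0.0217), H2-Aa (-0.69, 0.0217) and H2-Ob (-0.59, 0.0406). In arrays 1 and 2, then in arrays 3 and 4, r was -0.76 and -0.51 for H2-Ab1, -0.80 and -0.07 for H2-Aa, and -0.61 and -0.45 for H2-Ob, so that with H2-Aa did not hold in the second set. No relation with the markers of cDC2 or of plasmacytoid dendritic cells passed. These lists share arrays and normalization with the genes, and their part in the deviations was not tested.

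The genes whose deviations were most like those of Ciita over the 16 arrays were Naaa (r 0.98), Sfxn3 (0.96), the costimulatory ligand Cd86 (0.96), Rab7b (0.95) and Zfhx3 (0.95). Over all genes the median r with Ciita was 0.06, and 1.02% were above 0.8. The genes most like the mean of the class II genes were Rab7b (0.95), Man2b1 (0.95), Fes (0.94), Sfxn3 (0.94) and Fam149a (0.94). Here the median over all genes was 0.04, and 0.723% were above 0.8.

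The wider pathway was read through lists chosen for it, and 0 genes of any list were called in any comparison. The 7 factors that bind the class II promoters were 2 higher and 5 lower by sign in draining KO cells against draining Het cells (median -0.08), and 5 higher and 2 lower in the non-draining node (median 0.02). Nfyc, a subunit of the factor that binds the Y box, had 467.6 ± 36.1 in draining KO cells and 558.2 ± 44.3 in draining Het cells (SD, n = 4 each), without overlap, where 1.58% of all genes did not overlap. Its log2 difference was -0.25 ± 0.11 (SE) with an exact permutation p of 0.0286, the smallest possible, and an adjusted limma p of 1.00. In the non-draining node the difference was 0.11 ± 0.11. Rfxank, a subunit of the X box factor, differed by 0.16 ± 0.13 for draining and -0.23 ± 0.13 for non-draining cells, and Nfyb by -0.28 ± 0.21 and 0.02 ± 0.21.

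Of the genes that induce Ciita, 8 were measured, and 3 were higher and 5 lower by sign in KO cells of the draining node. Ifngr1, a chain of the interferon gamma receptor, had 780.0 ± 258 in draining KO cells and 511.6 ± 92.8 in draining Het cells, and 787.6 ± 194 in non-draining KO cells and 659.1 ± 202 in non-draining Het cells (SD, n = 4 each), where array 2 stood apart at 960.0. Over both nodes its log2 difference was 0.42 ± 0.16 (SE), with an unadjusted limma p of 0.0198. Irf4, a factor of mature and type 2 dendritic cells, had 108.4 ± 12.9 in draining KO cells and 145.1 ± 33.1 in draining Het cells, and 95.4 ± 23.9 in non-draining KO cells and 129.2 ± 31.0 in non-draining Het cells. Its difference over both nodes was -0.41 ± 0.14, with an unadjusted limma p of 0.00866 and an adjusted limma p of 1.00. Irf8, the factor that defines cDC1 and one of the cDC1 markers above, differed between KO and Het cells by -0.03 ± 0.12 (draining) and 0.19 ± 0.12 (non-draining).

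Of the 4 repressors of Ciita, none differed past the threshold. Prdm1, which encodes BLIMP-1, differed between KO and Het cells by -0.00 ± 0.21 (draining) and 0.09 ± 0.21 (non-draining) on the log2 scale (SE). Bcl6, Zbtb32 and Socs1 differed by 0.06 ± 0.10, -0.00 ± 0.15 and -0.14 ± 0.18 in the draining node. For non-draining cells these values were 0.15 ± 0.10, 0.10 ± 0.15 and -0.05 ± 0.18. None had an unadjusted p under 0.05.

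The proteases and reductase that process antigen and the invariant chain were lower by sign in 7 of 8 cases in KO cells of the draining node (median -0.13), 5 of 8 in the non-draining node (median -0.04) and 7 of 8 over both nodes (median -0.09). Lgmn, the asparagine endopeptidase, gave 687.3, 224.2, 447.4 and 555.6 in draining KO cells and 592.2, 498.2, 720.2 and 792.9 in draining Het cells. Non-draining KO cells gave 486.7, 421.6, 479.3 and 535.6, against 724.6, 532.6, 624.3 and 729.4 in non-draining Het cells. The groups overlapped in both nodes, and array 2 of the KO draining cells was the lowest of all 16.

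The log2 difference of Lgmn was -0.53 ± 0.25 (SE, exact permutation p 0.2) for draining cells and -0.43 ± 0.25 (exact permutation p 0.0571) for non-draining cells. Over both nodes it was -0.48 ± 0.18, with an unadjusted limma p of 0.0147 and an adjusted limma p of 1.00. Ctsl, a cathepsin known for class II work in thymic epithelium, was dim, at 55.6 ± 7.0 in draining and 69.6 ± 11.05 in non-draining KO cells (SD, n = 4 each), a log2 difference of -0.32 ± 0.13 (unadjusted limma p 0.0289). Ctsh differed by -0.21 ± 0.15 between nodes in both genotypes.

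Turnover of surface class II was read through 3 genes. Marchf1, the ubiquitin ligase that sends class II to lysosomes in dendritic cells, differed between KO and Het cells by 0.02 ± 0.12 (draining) and 0.14 ± 0.12 (non-draining) on the log2 scale (SE). Cd83, which opposes that ligase, had 629.5 ± 80.1 in draining KO cells and 528.8 ± 81.5 in draining Het cells (SD, n = 4 each), a difference of 0.26 ± 0.13 (exact permutation p 0.171), and differed by 0.02 ± 0.13 in the non-draining node. Marchf8, a related ligase, was dim, at 27.6 ± 7.8 in draining and 20.3 ± 2.7 in non-draining KO cells, with a difference of 0.39 ± 0.17 (exact permutation p 0.171). H2-Eb2, a further class II beta chain gene, had 245.1 ± 56.1 in draining and 331.2 ± 66.7 in non-draining Het cells, a difference of -0.44 ± 0.21 (exact permutation p 0.0857).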

How the data were processed

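Each of 16 RNA samples of sorted cDC1 was read on its own array (Affymetrix Mouse Gene 1.0 ST). The authors normalized the arrays with RMA, per the submitters' processing notes, and deposited intensity values on a linear scale (3.327 to 16300.089) for 35556 probe sets. The software version is not given in the sources used here. Of the probe sets, 21789 carried 1 gene symbol, 1621 several and 12146 none. Of the gene IDs, 21698 were found in RefSeq's mouse table (GRCm38.p6), with 0 symbols altered.

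The brightest probe set stood for each gene, giving 19938 genes. Values were tested two-sided as log2(intensity + 1), since the table was linear, with limma 3.58.1 in R 4.3.3. One fit of 4 group means over 16 arrays (12 residual degrees of freedom, estimated prior 4.35) served 7 comparisons, with Benjamini-Hochberg adjustment over all genes and a threshold of 0.05. Simple comparisons also had an exact permutation test of 4 against 4 arrays. The median SE was 0.12 for simple comparisons, 0.18 for the interaction and 0.09 for means. Errors after ± are SDs between the arrays of a group where a group mean is given, and SEs where a difference is given. The number of arrays limits the precision. Relations across arrays used deviations from group means and 100000 permutations within groups, in numpy 2.4.6 and scipy 1.17.1. The permutations did not keep arrays 1 and 2 apart from arrays 3 and 4. Plots were drawn with matplotlib 3.10.9.

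The named genes were all members, Wdfy4, from each pathway list up to 3 members of smallest p in a simple comparison, and every member of lists of 4 or fewer. To these were added the 5 genes most like Ciita and the 5 most like the members' mean. The 9 genes, the lists and the tests were chosen with earlier results of these data known. Some members of the pathway and marker lists were not analysed here. Markers of cDC2 and plasmacytoid dendritic cells were also read. The fit was tested on simulated data.

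Array numbers 1 to 4 recur in each group. In draining against non-draining Het cells every same-numbered pair of arrays deviated together (r 0.23, 0.20, 0.31 and 0.23), though only numbers 2 and 4 correlated best with their own number. The labels give no pairs, so the values printed for that comparison come from fits and tests without pairing. The fit with the number as a block is an alternative.

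Alternatives included other offsets, filters, scalings, random and fixed replicate blocks, fits of fewer groups, and each array left out in turn.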

Additional observations from a re-analysis of the deposited data

Results flagged for a closer look

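Dixon's test was applied to the 4 arrays of each group for 27 genes, the 8 class II genes, Wdfy4 and the genes named from the pathway lists, 108 groups in all, and 2 groups held an array apart from the rest (critical value 0.829). Chance gives about 1 in 20 such groups. Ifngr1 had 960.0 intensity units in array 2 of the Het non-draining cells, against 586.6 in the nearest array of that group, a gap of 0.868 of the range. Zbtb32 had 49.5 in array 3 of the KO draining cells, against 56.7 in the nearest array, a gap of 0.917 of the range. None of the 8 class II genes was apart in this way.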

How the results depend on the processing

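None of the 8 class II genes passed the threshold in limma under any of the 30 alternatives of a simple comparison, or the 29 of the other comparisons, and the smallest adjusted p over these 1656 values was 0.288, for H2-Oa in KO minus Het over both nodes. Of these values 20 moved by more than the SD between arrays, 12 of them in fits of 2 arrays a group and 8 with the cDC1 marker mean as a covariate, a setting chosen after seeing the data. With that covariate the median difference of the 8 genes between non-draining KO and Het cells was -0.0785, against 0.12 without it, and leaving out each array in turn it ran from 0.05 (without array 2 of those KO cells) to 0.20 (without array 2 of those Het cells). Among all genes, arrays 3 and 4 alone gave 4 calls for KO minus Het in draining cells, 2 for that difference in non-draining cells, 1 for the node difference in KO cells and 5 for KO minus Het over both nodes, where all arrays gave 0. Of the pairs of Ciita with another gene, 0 passed in arrays 1 and 2 alone and 0 in arrays 3 and 4 alone, since 8 arrays cannot pass, and r with H2-Aa was -0.22 in arrays 3 and 4. The pair with H2-DMa was lost without array 2 (r 0.54) or 4 (0.55) of the Het draining cells, or array 2 (0.43) or 4 (0.56) of the Het non-draining cells. The pair with H2-Oa, which failed with all arrays, failed in 16 of 22 alternatives and passed in the rest.

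With the replicate number as a block, 1 gene outside the class II set was called in KO minus Het over both nodes, and the block changed no other call. In draining against non-draining Het cells all 4 same-numbered pairs correlated above 0.1, and 0 genes were called with the block. Only numbers 2 and 4 correlated best with their own number there, as in the KO cells, so pairs were not settled. In each of the other 3 simple comparisons some same-numbered r was below 0.1. Over all 4, 12 of 16 same-numbered pairs correlated above 0.1 in their deviations (r -0.06 to 0.48), and 7 of 16 correlated best with their own number, a hint from the data and not from the labels. A random block of genotype and number gave a correlation of 0.198 and changed no call of a class II gene. What the arrays limit is precision, with a median SE of 0.12 on the log2 scale for a simple comparison.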
